A study of Mus musculus with 4 samples.

Results

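The genes described here encode the proteins that hold epithelial cells together: 10 members, namely Cdh1, Ctnnb1, Jup, Dsp, Ocln, Tjp1, Cldn3, Cldn4, Cldn7 and Epcam, out of 22350 protein-coding genes on the autosomes and chromosome X. They were chosen by their known roles and not by a value measured here, though with earlier results of these data known. For each member, accessible regions were taken at its transcription start sites (TSS ± 1000 bp) and over its locus, meaning the gene body with 20 kb on either side, in mouse genome build mm9 with the GENCODE vM1 annotation. The 10 loci covered 0.726 Mb. With vehicle they held 19 regions, with TGFβ 37, and the 10 min list had 30.

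Chromatin accessibility was assayed by ATAC-seq, in which the Tn5 transposase cuts and tags DNA that nucleosomes leave free, in NMuMG cells, an established epithelial line from normal mouse mammary gland that is widely used as a model of TGFβ-driven epithelial-mesenchymal transition (EMT). The labels give 4 samples, 1 per group. In complete medium (serum and insulin present), cells received vehicle or 5 ng/ml TGFβ1 for 2 h, and each of these samples has its own peak list. The other pair was starved of serum and insulin for 6 h before vehicle or 5 ng/ml TGFβ1 was given for 10 min, and the labels of both samples name 1 shared list. That list is called the 10 min list below and stands for the experiment, so no comparison of vehicle with TGFβ was made at 10 min. Its name carries the TGFβ treatment, and which sample of the pair its peaks came from was not settled. For the TGFβ sample of the 10 min pair a label field gives 2 h, against 10 min in its title and in the treatment text, and 10 min was taken. The vehicle is given as HCl with BSA in one label field and as Tris-HCl with BSA in another. All samples come from 1 cell line without genetic changes named in the labels.

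Epithelial cells are joined by adherens junctions, desmosomes and tight junctions. E-cadherin, encoded by Cdh1, spans the membrane at adherens junctions and binds β-catenin (Ctnnb1) or plakoglobin (Jup) on its inner side. Plakoglobin also binds desmoplakin (Dsp), which ties desmosomes to keratin filaments. Occludin (Ocln) and the claudins (Cldn3, Cldn4, Cldn7) are the membrane proteins of tight junctions, and ZO-1 (Tjp1) is their scaffold. Epcam is a membrane glycoprotein of epithelia that binds claudins. During EMT, repressors of the Snail and Zeb families are known to bind E-box sequences in the Cdh1 promoter, and many junction genes are turned down.

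The deposited lists hold peaks and no read counts, so the files do not show the depth. Library read totals given with the study were not taken as data. By them the vehicle library in complete medium is the deeper of its pair. After intervals under 150 bp were dropped and neighbours with gaps under 1000 bp were merged, there were 19648 vehicle, 38532 TGFβ and 26732 regions in the 10 min list. A score from 540 to a cap of 1000, the authors' scaled measure of how reproducible a peak was, goes with each peak, and a region carries the highest score of its peaks. Regions were present in every list at the TSS of 6 of 10 epithelial marker genes (Krt8, Krt18, Krt19, Grhl2, Esrp2 and Elf3). Of 22 markers of blood, endothelium, fibroblast, neuron, muscle and liver, none had a region at the TSS in the vehicle or 10 min list and 3 (Cd68, Kdr and Snap25) had one in the TGFβ list. With 1 list per condition there are no replicates and no test between conditions. The 95% intervals given (Wilson for shares, exact for ratios) cover counting error only, and neighbouring regions are not independent. The absence of a region means that no peak of at least 150 bp was listed, not that the DNA was closed. In a list made from bulk chromatin, a weak signal in all cells and a strong signal in few cells cannot be told apart.

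At the start sites, 5 of the 10 members had a region in each list (50%, 23.7 to 76.3), but not the same 5. Among all protein-coding genes, a TSS region was listed for 41.0% with vehicle, for 47.6% with TGFβ and for 46.3% in the 10 min experiment. Members were thus near the share of all genes in every list. Ctnnb1, Jup, Ocln and Tjp1 were called in all lists. The fifth member was Dsp with vehicle, Cldn4 with TGFβ and Cdh1 in the 10 min list. Cldn3, Cldn7 and Epcam had no region at a TSS in any list.

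**Figure D1:**
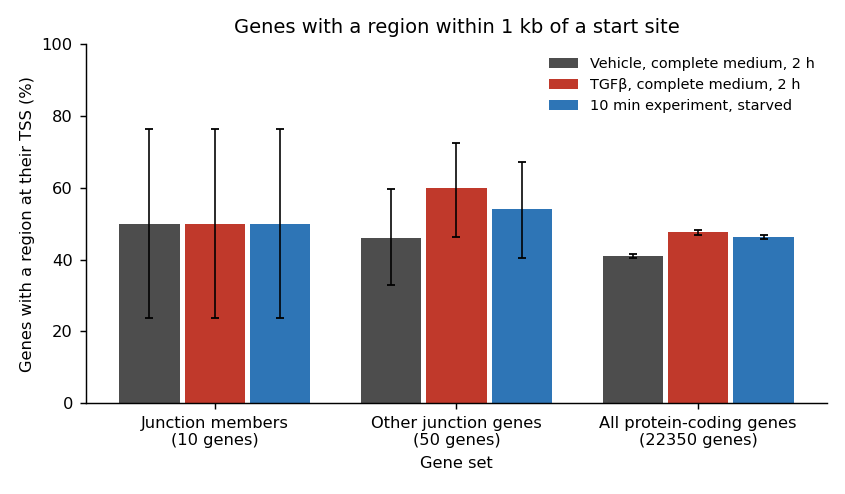
Percentage of genes with a region within 1000 bp of an annotated start site, by gene set (x axis) and list (colour). Error bars are 95% Wilson intervals and cover counting error only. The 10 members sit at 50% in every list, and the 50 other junction genes at 46%, 60% and 54% in the vehicle, TGFβ and 10 min lists.

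Over the whole loci, the members held 2.62 regions per 100 kb with vehicle, 5.10 with TGFβ and 4.13 in the 10 min list. The loci of all protein-coding genes held 1.15, 2.11 and 1.56 per 100 kb in the same lists. Over the loci of the 50 other junction genes there were 105, 183 and 137 regions, beside 19, 37 and 30 over the 10 member loci. A density per 100 kb is not given for these 50, so the higher density is not shown to be particular to the members. Counts per member differed widely. Cdh1 held 6, 9 and 7 regions in the vehicle, TGFβ and 10 min lists, while Epcam held none in any list. Cldn4 went from 2 regions in the vehicle list to 7 in the TGFβ list, and Jup from 1 to 6, the 2 members with the largest differences. Tjp1 had 2 in both.

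**Figure D2:**
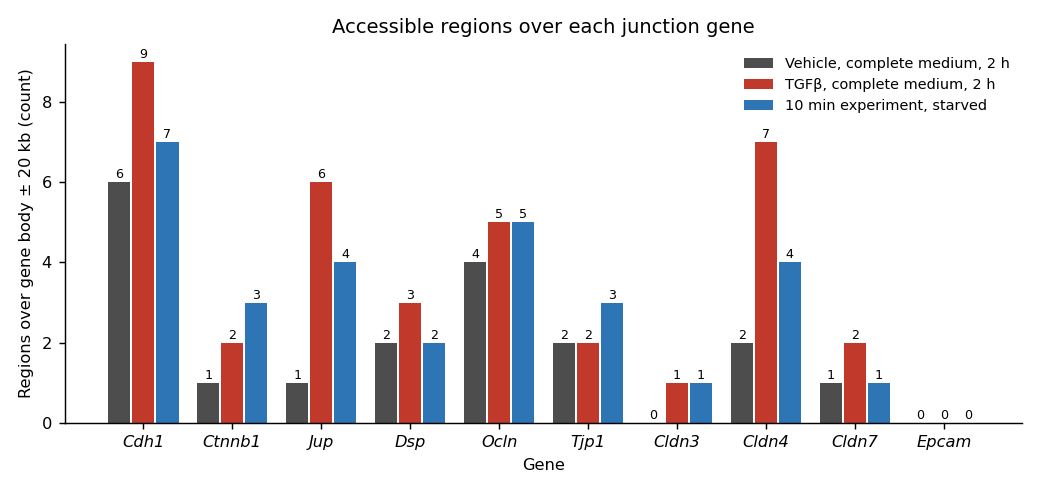
Number of regions over the gene body ± 20 kb of each member (y axis, count) in the 3 lists (colour), with the count above each bar. Jup (1 and 6) and Cldn4 (2 and 7) show the largest differences between the vehicle and TGFβ lists, and Epcam is at 0 in every list.

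The ratio of TGFβ to vehicle regions over the member loci was 1.95 (37 to 19, exact 95% interval 1.09 to 3.58). It was 1.83 (1.79 to 1.86) over all protein-coding loci and 1.96 over the whole lists, so the ratio at the members was close to that of the lists as a whole. When the TGFβ list was cut by score to the length of the vehicle list, 17 regions remained over the member loci and the ratio was 0.895. That cut makes the whole lists equal in length by construction, so 0.895 cannot be set against the ratios above. Some of the regions over these loci lie at the TSS of a neighbouring gene, such as Tmco7 near Cdh1, Hap1 near Jup, Gtf2h2 near Ocln and Wbscr27 near Cldn4. Without them the counts were 13 and 29, a ratio of 2.23 (1.12 to 4.67). The region at the Dsp start, which also lies within 1000 bp of a start of Gm10129, is among those left out. With it the counts were 14 and 29, a ratio of 2.07.

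A TGFβ region overlapped 16 of the 19 vehicle regions (84.2%, 62.4 to 94.5), against 93.6% of all vehicle regions. A vehicle region overlapped 16 of the 37 TGFβ regions (43.2%, 28.7 to 59.1), against 47.6% of all TGFβ regions. Joining the regions of all lists over the member loci gave 43 sites, and no shares over the whole lists are given beside them. All lists shared 16 of them, the TGFβ list alone had 11, the TGFβ and 10 min lists without the vehicle list had 10, the 10 min list alone had 3, the vehicle list alone had 2 and the vehicle and 10 min lists without the TGFβ list had 1. For the 21 regions called with TGFβ and not with vehicle the median width was 304 bp, with 2 at the score cap. For the 16 TGFβ regions shared with vehicle it was 608.5 bp, with 12 at the cap. Over the whole TGFβ list the same medians were 281 and 546 bp. Of the 21 TGFβ-only regions, 10 were also in the 10 min list, against 31.5% of all TGFβ-only regions. All 16 shared TGFβ regions were in it, against 90.8% of all shared ones.

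**Figure D3:**
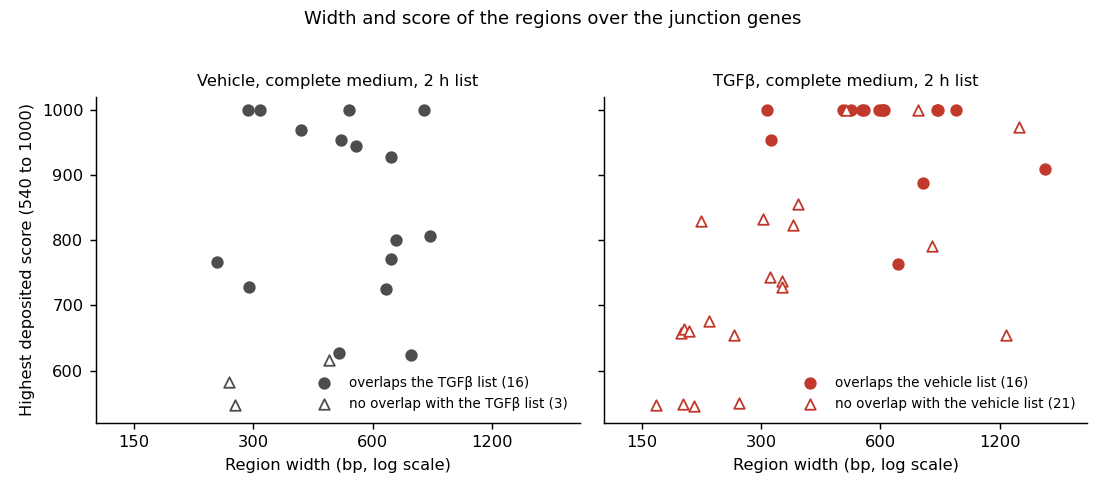
Width (x axis, bp, log scale) and highest deposited score (y axis, 540 to 1000) of each region over the member loci in the vehicle list (left) and the TGFβ list (right), with filled circles for regions that overlap the other list and open triangles for those that do not. The 21 TGFβ-only regions reach down to 163 bp and a score of 546, while the 16 shared TGFβ regions start at 310 bp and 764.

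A TGFβ-only region lay over the locus of 9 of the 10 members, all but Epcam, where 50.2% of all protein-coding genes had one, as did 38 of 50 other junction genes (76%), listed by their known roles. With the TGFβ list cut to the length of the vehicle list, 2 members (Jup and Cldn4) had one. A vehicle-only region lay over 3 of 10 members (Cdh1, Dsp and Tjp1), against 6.93% of all genes and 6 of 50 other junction genes (12%). These 3 regions had scores of 548, 617 and 582, near the lower end of the list. Such shares per locus were not adjusted for the higher density of regions over the member loci, given above. Epcam was the 1 member with no region in any list over its locus, as were 24.4% of all genes.

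Cdh1 lies on the plus strand at chr8:109127251-109194146. Its promoter is shown because it was called in 1 list only and because it holds the E-boxes for which the gene is known. The stretch at chr8:109127001-109127280 (mm9, plus strand) runs from 250 bases before the annotated start to 30 bases after it. Capitals mark the E-box CACCTG or its reverse complement, the KLF/SP word GGGCGG and the SMAD word CAGACA.
Cdh1 promoter: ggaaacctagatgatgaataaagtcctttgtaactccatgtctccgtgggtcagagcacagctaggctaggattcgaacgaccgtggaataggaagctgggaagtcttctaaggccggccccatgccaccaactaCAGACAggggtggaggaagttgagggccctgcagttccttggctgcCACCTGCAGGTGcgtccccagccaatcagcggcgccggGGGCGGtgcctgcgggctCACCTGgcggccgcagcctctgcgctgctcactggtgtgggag

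The E-boxes began 69, 63 and 13 bases before the start, the first 2 back to back as an inverted pair, the KLF/SP word 31 bases before it and the SMAD word 115 bases before it. A region at chr8:109127054-109127440 covered most of this stretch, all of its capitals included, in the 10 min list, with a score of 832, above 51.9% of the regions of that list, and a width of 387 bp, wider than 29.2%. Neither complete-medium list had a region there. The nearest vehicle region was 10628 bp from a Cdh1 start and the nearest TGFβ region 4117 bp. A TSS called in the 10 min list alone was found for 1.35% of all protein-coding genes. Between the 10 min list and the others, starvation, time and library differ together and cannot be told apart. TGFβ exposure may also differ from the vehicle list, since the source of the peaks in the 10 min list was not settled.

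Elsewhere in Cdh1 the lists had more in common. A region about 14 kb upstream of the gene, at chr8:109112663-109113272 in the TGFβ list, was at the score cap in all lists. Intronic regions centred 11548, 16470 and 37739 bp into the gene in the TGFβ list were also in both other lists. The TGFβ list added 4 intronic regions. The highest-scoring of them, at chr8:109167054-109167357 (score 832), was in no other list, and neither were chr8:109132160-109132519 (824) and chr8:109156521-109156784 (550). The remaining one, at chr8:109179923-109180260 (738), was also in the 10 min list. The vehicle list alone had an intronic region at chr8:109148853-109149121, with a score of 548.

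All 4 of these TGFβ-only intronic regions of Cdh1 held the SMAD word within 200 bp of the centre. It was in 41.9% of all TGFβ-only regions away from any TSS. Among the Cdh1 regions shared with vehicle, the upstream one and those centred 16470 and 37739 bp into the gene held it too. The shared one at 11548 bp did not. Of the TGFβ-only regions of Cdh1, the one with the highest score is shown (chr8:109167056-109167355, mm9, plus strand). Capitals mark the TEAD word GGAATG, the ETS word ACCGGAAGT with 1 mismatch allowed, and the SMAD word, each on either strand.
Cdh1 intron: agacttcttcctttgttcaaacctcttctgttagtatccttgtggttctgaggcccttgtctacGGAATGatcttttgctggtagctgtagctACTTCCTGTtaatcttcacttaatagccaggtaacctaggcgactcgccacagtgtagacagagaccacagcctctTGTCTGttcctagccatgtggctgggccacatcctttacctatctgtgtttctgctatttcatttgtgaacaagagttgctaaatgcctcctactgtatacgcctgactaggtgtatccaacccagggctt

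Ctnnb1, at chr9:120838334-120869625 on the plus strand, was called at its TSS in all lists. The region was not at the 5′ end of the gene model but at transcripts that start further in, centred 4183 bp downstream of that end in the vehicle list, where the DNA was 77.6% G and C. It spanned chr9:120842245-120842789 in the vehicle list, chr9:120842278-120842816 in the TGFβ list and chr9:120842316-120842773 in the 10 min list. A further region 9833 bp upstream of the gene model, chr9:120828344-120828658 (score 744), was in the TGFβ and 10 min lists and not in the vehicle list. A region 1980 bp upstream, chr9:120836091-120836616 (score 765), was in the 10 min list alone, in an intron of the neighbouring 4930593C16Rik.

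Jup, at chr11:100230272-100259077 on the minus strand, was called at its TSS in all lists, at chr11:100258979-100259476 in the vehicle list, chr11:100258863-100259475 in the TGFβ list and chr11:100258568-100259486 in the 10 min list. Within the vehicle list its score of 954 was above 57.1% of the regions. It was at the cap in the TGFβ list, above 58.6% of that list, and in the 10 min list, above 70.1%. The start-site region was the only vehicle region over the locus. The TGFβ list had 5 more. Of these, 2 were in Jup introns and also in the 10 min list: chr11:100256653-100257400, at the cap and 2050 bp into the gene, and chr11:100252460-100252662 (546). Another 2 were at the TSS of neighbours, Hap1 (chr11:100216378-100217717, score 974) and Fkbp10 with Leprel4 (chr11:100275482-100276289, score 791). The last (chr11:100210254-100210475, score 676) was within Hap1 and only in the TGFβ list.

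The intronic region at the cap was the highest-scoring TGFβ-only region of the adherens junction genes, and its strongest interval is shown (chr11:100256653-100256952, mm9, plus strand). None of the words searched occurs in this stretch, so it has no capitals, although the AP-1 word TGACTCA, the SMAD word, the E-box and the TEAD word were found within 200 bp of the centre of the merged region.
Jup intron: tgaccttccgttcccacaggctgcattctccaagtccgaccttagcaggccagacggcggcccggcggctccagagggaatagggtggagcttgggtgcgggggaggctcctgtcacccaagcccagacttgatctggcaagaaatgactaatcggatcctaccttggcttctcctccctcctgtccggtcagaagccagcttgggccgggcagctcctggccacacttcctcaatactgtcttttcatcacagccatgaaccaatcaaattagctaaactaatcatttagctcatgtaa

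**Figure D4:**
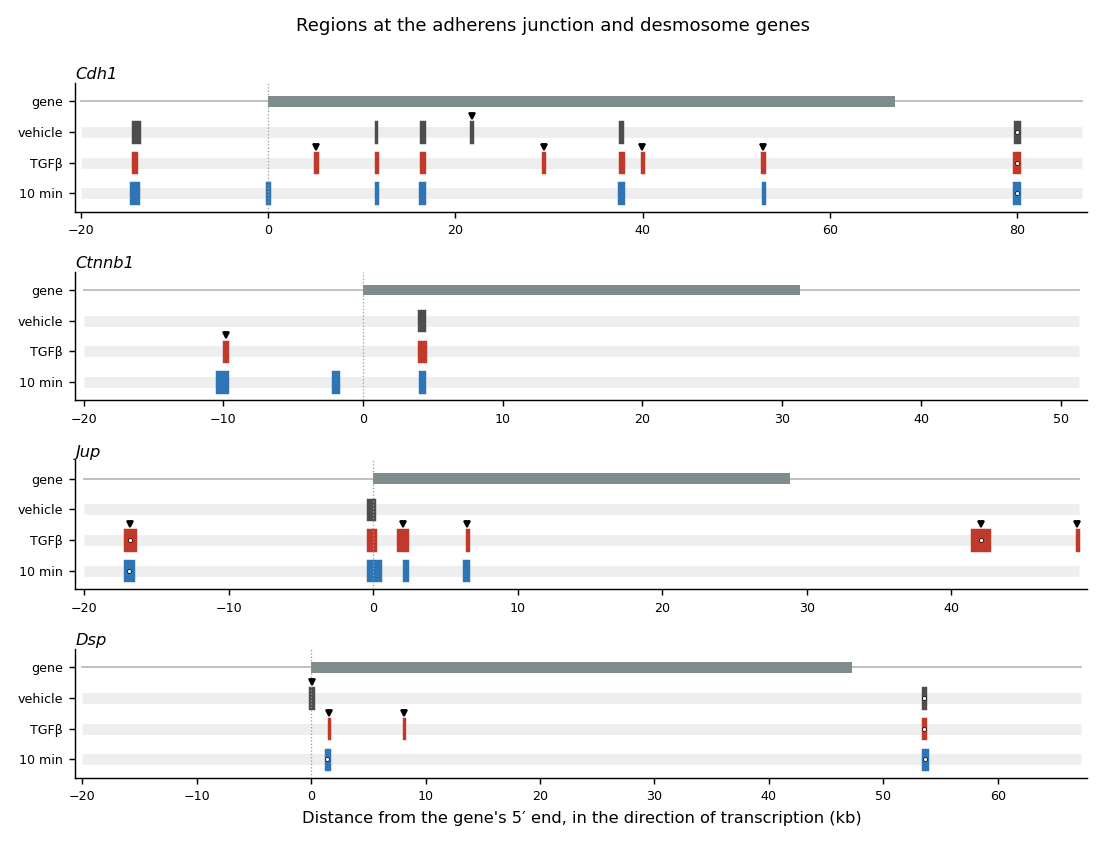
Regions over Cdh1, Ctnnb1, Jup and Dsp in the 3 lists. The x axis is the distance from the gene's 5′ end in kb in the direction of transcription, the grey bar is the gene, black triangles mark regions of a complete-medium list that the other one lacks, and white dots mark regions at the TSS of another gene. A Cdh1 start-site region appears only in the 10 min row, and a Dsp start-site region only in the vehicle row.

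Dsp, at chr13:38243197-38290446 on the plus strand, was the member whose TSS was called with vehicle and not with TGFβ. The region at chr13:38243013-38243477 had a score of 617, above 12.9% of the regions of the vehicle list. It also lies within 1000 bp of a start of the overlapping gene Gm10129. Of all protein-coding genes, 0.622% had a TSS called with vehicle and not with TGFβ. The nearest region in the TGFβ list was 1455 bp from a Dsp start and in the 10 min list 1157 bp. These were chr13:38244672-38244861 (score 549) in the TGFβ list and chr13:38244374-38244844 (score 662) in the 10 min list, which overlap each other in an intron. An interval of 135 bp at chr13:38244430-38244564 in the TGFβ list, with a score of 731, fell under the minimum width. With a TSS window of 2000 bp, Dsp counted as called in all lists.

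A second TGFβ-only region of Dsp, at chr13:38251218-38251429 (score 829), lay 8127 bp into the gene and is shown whole (mm9, plus strand), since it ranks next by score among the TGFβ-only regions of the members. Capitals mark the AP-1 word TGACTCA, here as its reverse complement, and the SMAD word.
Dsp intron: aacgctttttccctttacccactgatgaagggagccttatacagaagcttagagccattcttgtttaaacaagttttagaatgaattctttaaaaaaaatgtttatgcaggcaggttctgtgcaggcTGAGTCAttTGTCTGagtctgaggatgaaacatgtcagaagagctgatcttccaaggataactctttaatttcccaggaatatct

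Ocln, at chr13:101266462-101322673 on the minus strand, had a similar layout in the lists. Its TSS was called in all lists, at chr13:101322027-101322776 in the vehicle list, chr13:101322190-101322796 in the TGFβ list and chr13:101322160-101322969 in the 10 min list. Within the vehicle list its score of 624 was above 14.1% of the regions. Within the TGFβ list it was at the cap, above 58.6% of the regions. Scores of different lists are not compared. Intronic regions 35825 and 19677 bp into the gene in the TGFβ list were also in both other lists. The TGFβ and 10 min lists shared 1 more intronic region, chr13:101306148-101306486 (score 729), which the vehicle list lacked and which held the AP-1, SMAD and E-box words. The widest region of the TGFβ list over these loci, 1560 bp, lay at the TSS of the neighbour Gtf2h2, at chr13:101262247-101263806.

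Tjp1, at chr7:72441051-72516125 on the minus strand, was called at its TSS in all lists, at chr7:72515453-72516289 in the vehicle list, chr7:72515647-72516413 in the TGFβ list and chr7:72515284-72516504 in the 10 min list. These were the widest regions over the loci in the vehicle list (837 bp) and in the 10 min list (1221 bp). Tjp1 had 1 further region in each complete-medium list, and they lay in different places. The vehicle region at chr7:72482852-72483111 (score 582) was in an intron 33143 bp into the gene, and the 10 min list also had it. The TGFβ region at chr7:72532560-72532931 (score 855) was 16621 bp upstream of the gene and was likewise in the 10 min list. The upstream region is shown as the highest-scoring TGFβ-only region of Tjp1 (chr7:72532596-72532895, mm9, plus strand), with capitals for the SMAD word, the E-box and the AP-1 word.
Tjp1 upstream: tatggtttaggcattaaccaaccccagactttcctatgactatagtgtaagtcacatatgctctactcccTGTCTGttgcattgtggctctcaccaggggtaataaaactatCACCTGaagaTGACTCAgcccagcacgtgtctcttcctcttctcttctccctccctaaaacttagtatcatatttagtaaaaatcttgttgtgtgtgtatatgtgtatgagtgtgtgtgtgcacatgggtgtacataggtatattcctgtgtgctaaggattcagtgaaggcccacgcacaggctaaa

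Of the 3 claudins, Cldn4 held the most regions in every list. It lies on the minus strand at chr5:135420996-135422804, and its TSS was called in the TGFβ list alone, by a region of 188 bp at chr5:135422880-135423067 with a score of 658, above 18.3% of the TGFβ regions and wider than 8.60%. With a minimum width of 300 bp this call was lost. Of all protein-coding genes, 7.24% had a TSS called with TGFβ and not with vehicle. The nearest vehicle region was 4185 bp from the Cldn4 start and the nearest 10 min region 4172 bp. It was the 1 member promoter with the AP-1 word between 250 bases before the start and 50 after it, where 4.42% of protein-coding promoters have it.

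Upstream of Cldn4 the TGFβ list had 4 more regions that the vehicle list lacked. The one at the score cap, chr5:135434897-135435386, lay 12338 bp upstream and was also in the 10 min list, as was chr5:135441452-135441648 (score 661). The regions at chr5:135439540-135439730 (664) and chr5:135431453-135431615 (548) were in the TGFβ list alone. A region 4405 bp upstream was common to all lists. The region at the cap is shown because it ranks first by score among the regions of 1 complete-medium list, and the start-site region because it is the Cldn4 start-site call. Both carry the AP-1 word 2 times. Capitals mark that word, the SMAD word and the E-box in chr5:135434992-135435291 and in chr5:135422880-135423067 (mm9, both on the plus strand, so the Cldn4 start lies to the left). The start-site sequence was added after its values were seen.
Cldn4 upstream: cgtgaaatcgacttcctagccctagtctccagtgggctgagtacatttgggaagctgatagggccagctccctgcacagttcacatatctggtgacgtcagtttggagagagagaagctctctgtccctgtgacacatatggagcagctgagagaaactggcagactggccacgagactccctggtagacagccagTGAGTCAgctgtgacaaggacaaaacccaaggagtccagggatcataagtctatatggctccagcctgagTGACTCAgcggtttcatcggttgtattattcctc
Cldn4 start-site region: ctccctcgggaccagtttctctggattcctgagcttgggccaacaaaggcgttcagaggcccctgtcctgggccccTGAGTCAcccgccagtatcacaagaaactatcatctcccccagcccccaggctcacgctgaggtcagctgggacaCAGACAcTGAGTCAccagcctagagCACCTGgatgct

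Cldn3 is a neighbour of Cldn4 on chromosome 5 (chr5:135462084-135463342, plus strand), and their loci overlap by 721 bp, where no list had a region. Cldn3 had no vehicle region, 1 TGFβ region at chr5:135465713-135465968 (score 654), past the end of the gene in an exon of Wbscr25, and 1 region in the 10 min list at chr5:135450178-135450532, 11729 bp upstream, with the lowest score of its list (540). The vehicle list had its nearest region 34803 bp from a Cldn3 start. Cldn7, at chr11:69778281-69781387 on the plus strand, had 1, 2 and 1 regions in the vehicle, TGFβ and 10 min lists, all at the TSS of neighbours. One site, at Ctdnep1 and Rai12, was in every list, and the other, at Slc2a4 (chr11:69761411-69762659, score 654), in the TGFβ list alone. Neither gene thus had a region of its own that all lists shared.

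Epcam, at chr17:88035319-88050446 on the plus strand, had no region at its TSS or over its locus in any list, and the nearest was 22204 bp from the start in the vehicle list and 22151 bp in the TGFβ and 10 min lists. The TGFβ list had 1 interval over the locus that was too narrow to count, 120 bp at chr17:88021848-88021967 with a score of 573. Such narrow intervals were present over the loci of other members too, in all 1 with vehicle, 9 with TGFβ and 1 in the 10 min list.

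**Figure D5:**
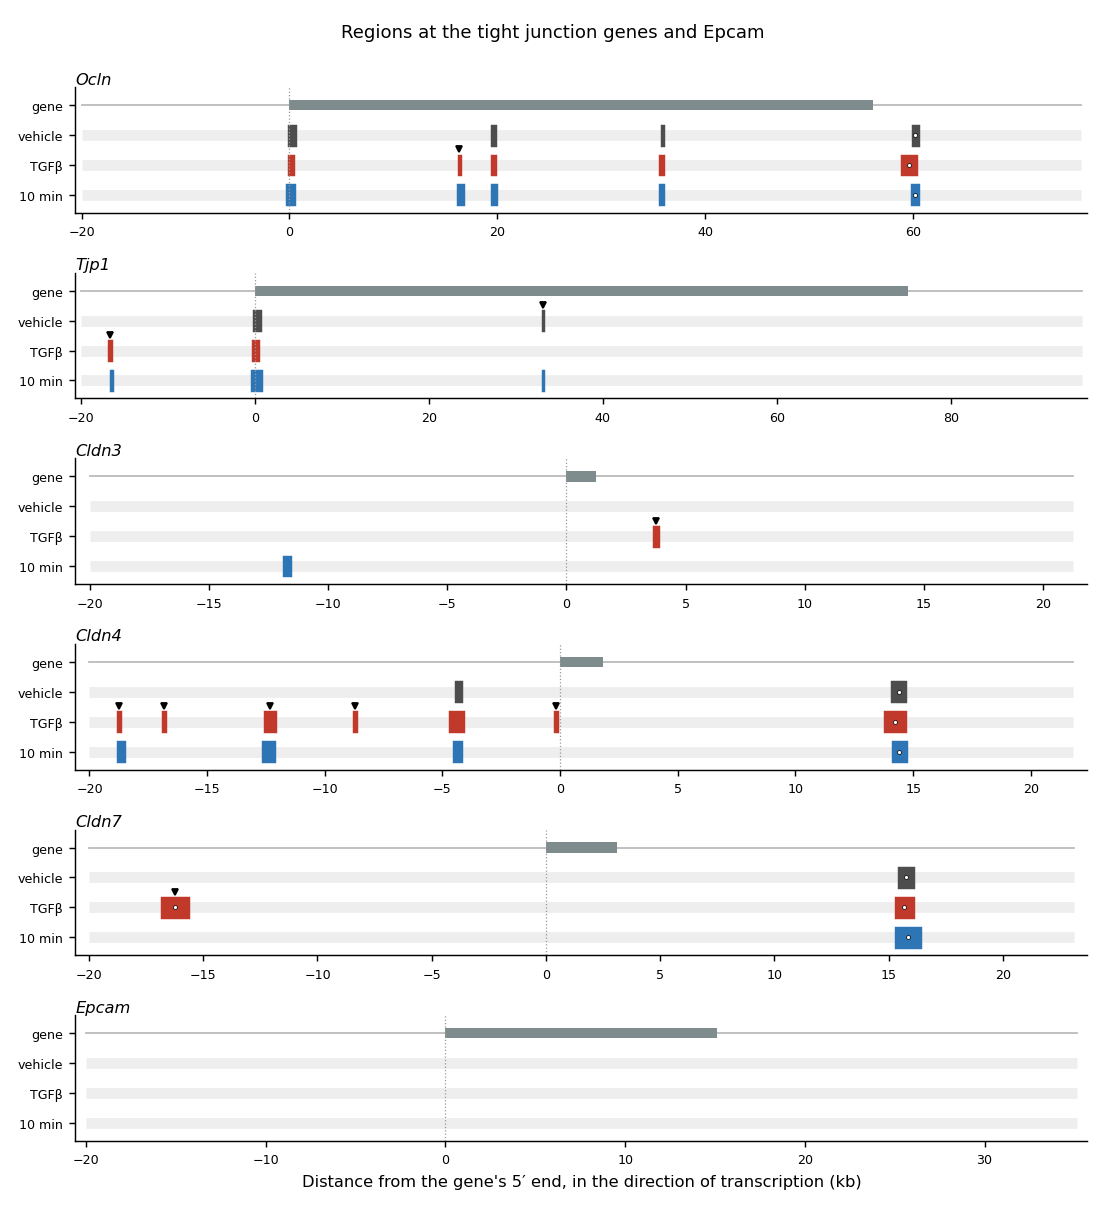
Regions over Ocln, Tjp1, Cldn3, Cldn4, Cldn7 and Epcam in the 3 lists, drawn as distance from the gene's 5′ end in kb in the direction of transcription, with the grey bar for the gene, black triangles for regions of a complete-medium list that the other one lacks and white dots for regions at the TSS of another gene. Cldn4 shows 5 triangles in the TGFβ row, 1 of them at its start, and the Epcam rows are empty.

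The base composition of the start sites is given here beside the calls. A start was counted as CpG-rich when the 250 bp on either side held at least 50% G and C and at least 0.6 of the CpG pairs that this composition would give. At the 5′ end of the gene model, Cdh1, Jup, Dsp, Ocln and Tjp1 were CpG-rich, and each was called in at least 1 list. Of these, Cdh1 was called in the 10 min list alone and Dsp in the vehicle list alone. Cldn3, Cldn4, Cldn7 and Epcam were not CpG-rich there, and of these 4 only Cldn4 was called. Ctnnb1 was not CpG-rich at that end but was at the start where its region lay. Cldn3 and Cldn7 also have an annotated start that meets both criteria, and it was not called. Among all protein-coding genes, 69.6% of CpG-rich and 14.9% of other starts were called with vehicle, 77.4% and 20.5% with TGFβ, and 76.7% and 18.6% in the 10 min list. The part of base composition in the calls at the members was not tested.

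The E-box CACCTG was present in the promoters, from 250 bases before the start to 50 after it, of 6 of the 10 members (Cdh1, Dsp, Ocln, Cldn3, Cldn4 and Epcam), and in 19.95% of protein-coding promoters. The KLF/SP word GGGCGG was in 8 of 10, all but Ctnnb1 and Cldn7, against 43.5%. The start-site region of Ctnnb1, which lies further into the gene, did hold this word within 200 bp of its centre in every list. The SMAD words (CAGACA or GTCTAGAC) were in 2 of 10, Cdh1 and Cldn4, against 19.1%, and the TEAD word GGAATG in 1, Cldn7, against 13.4%. No member promoter held the ETS word (9.69% of promoters), the GRHL word AACCGGTT (0.166%) or the CTCF consensus (0.528%). All words were searched on both strands. A match is a property of the sequence alone and says nothing of binding. The words are short, and several of the promoters are rich in G and C.

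Within 200 bp of the centres of the 37 TGFβ regions, the SMAD words were in 17 (45.9%, 31.0 to 61.6; 35.0% of all TGFβ regions), the KLF/SP word in 14 (37.8%, 24.1 to 53.9; 25.8%), the E-box in 13 (35.1%, 21.8 to 51.2; 24.1%), the AP-1 word in 11 (29.7%, 17.5 to 45.8; 32.1%), the TEAD word in 8 (21.6%, 11.4 to 37.2; 25.04%) and the ETS word in 2 (5.41%, 1.495 to 17.7; 8.62%). Every one of these intervals holds the share of the whole list. Neither the GRHL word nor the CTCF consensus was found in a member region of any list. In the 24 TGFβ regions away from any TSS, the SMAD words were in 15 (62.5%, 42.7 to 78.8), against 40.2% of all such TGFβ regions, and here the interval lies above the share of the list. By class, they were in 11 of the 17 TGFβ-only regions (64.7%, 41.3 to 82.7; 41.9% of the list) and in 4 of the 7 shared ones (57.1%, 25.05 to 84.2; 37.1%). Cdh1 held 7 of the 15. The SMAD words were among 8 kinds of word searched, and no test was made. In the 9 such vehicle regions the SMAD words were in 5 (55.6%, 26.7 to 81.1; 36.2%), and in the 18 of the 10 min list in 9 (50%, 29.0 to 71.0; 34.9%).

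The 50 other junction genes put the members in context. Their TSS was called for 23 with vehicle (46%), for 30 with TGFβ (60%) and for 27 in the 10 min list (54%), beside the shares of all genes above, and 21 were called in every list and 18 in none. By family, as far as reported here, the vehicle, TGFβ and 10 min lists called 13, 15 and 16 of 23 tight junction genes, 6, 7 and 7 of 9 adherens junction genes, and 3, 6 and 4 of 11 desmosome genes. None of 3 further adhesion genes was called. The TSS of 7 genes was called with TGFβ and not with vehicle (14.0% of the 50, against 7.24% of all genes), and that of none the other way. They included Pkp2, Pkp3 and Ppl, which code for the desmosomal plakophilins and periplakin, Cldn9, a claudin, Inadl, a polarity scaffold of tight junctions, and Pvrl1, the adherens junction protein nectin-1. Of these, Inadl, Pvrl1, Pkp2 and Ppl were also called in the 10 min list. Marveld2, which codes for tricellulin of tight junctions where 3 cells meet, and Crb3, an apical polarity protein, were called in the 10 min list alone, as Cdh1 was.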

How the data were processed

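Peak lists were analysed for NMuMG cells in complete medium with vehicle or TGFβ (1 list each) and for the 10 min experiment (1 list for both samples). The study's methods name the ENCODE ATAC-seq pipeline with alignment to mm9, MACS2 (version 2.1.2 in the submitters' processing notes) and filtering by irreproducible discovery rate (IDR). A Tn5 shift for peak calling is not given in the sources used here. The value deposited with each peak is a score, the authors' scaled IDR, with 1 line per summit. The series text speaks of duplicates while the labels give 1 sample per condition, so what the IDR compared was not settled. Scores were used within a list only.

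All 48339, 87916 and 75736 peaks lie inside the mm9 chromosomes. As in the study's methods, intervals under 150 bp were dropped and gaps under 1000 bp merged. Overlap meant at least 1 bp. Promoters in the study came from UCSC knownGene, here from GENCODE vM1. Python 3.11.15, scipy 1.17.1 and pysam 0.24.0 were used, and the steps were tested on simulated data. The files hold no read depth, and read totals given with the study were not used, so precision rests on counts of regions.

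The members and lists were chosen with earlier results of these data known. All members were named, with each region at a member TSS, each region of 1 complete-medium list only (at most 4 per member, by score, except where more are given for Cldn4 and Jup), each region of the 10 min list alone and the widest region of each list. Of the other junction genes, those whose TSS was called in 1 complete-medium list were named, except 1 that is not reported here, and Marveld2 and Crb3 were added after their values were seen. Sequences, read from the mm9 genome, were the Cdh1 promoter and the highest-scoring regions of 1 complete-medium list, narrower first. The one at the TSS of Hap1 is not shown. Alternatives changed the minimum width, merging, score minimum, list length, locus, TSS window, overlap and motif window.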

Additional observations from a re-analysis of the deposited data

How the results depend on the processing

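No paired analysis was possible because there was only 1 list for a condition. The 17 results were recomputed under the alternatives, 115 values in all, and 93 stayed within 1.5 times the count or inside the interval of the share or ratio. The ratio of TGFβ to vehicle regions ran from 0.895 to 2.23. It fell below 1 only with the TGFβ list cut to the length of the vehicle list, where 17 TGFβ regions remained, 82.4% of them were shared with vehicle, 2 members had a TGFβ-only region and 3 members (Ctnnb1, Jup and Ocln) a TSS region. Fewer regions enter by construction. With peaks at or above the median score of their list, the member loci held 8 vehicle, 15 TGFβ and 7 regions of the 10 min list, 100% of the vehicle regions were shared, and 4 members had a TGFβ-only region. TSS regions were then left at 2 members with vehicle, 3 with TGFβ and 1 in the 10 min list, and at 14 (vehicle) and 16 (10 min) of the other junction genes. Loci with 5 kb flanks held 22 TGFβ regions and 19 in the 10 min list, and those with 50 kb flanks held 34 vehicle, 63 TGFβ and 55 regions in the 10 min list. Within 100 bp of the highest-scoring interval, 27.0% of member TGFβ regions held a SMAD word and 13.5% the E-box, in a shorter window. The whole list was not counted in that window. The SMAD share in the member TGFβ regions away from any TSS was not recomputed under the alternatives. Leaving out regions at the TSS of other genes from the ratio and shares (also with the Dsp start kept), and no minimum width or merging of touching intervals for the TSS counts, were chosen after seeing the data.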
